A study of Mus musculus with 12 samples.

Results

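The 8 genes described here are Ly6c2, Ccr2, Plac8, F13a1, Chi3l3 (now named Chil3) and Ly6i, which mark classical monocytes of the mouse, and Treml4 and Ace, which mark non-classical monocytes. They were taken by symbol from a table of raw read counts with 23479 genes; all 8 were found, and all 8 were among the 15082 genes that passed the filter on low counts. RNA was measured in bulk from 12 prostate tumours, 3 in each of 4 groups, all grown in C57BL/6J mice from 100000 PTE-82 cells injected into the prostate. These prostate cancer cells express the TMPRSS2-ERG fusion, per the labels. The Lupron/anti-CSF1 group had 0.6 mg of Lupron per mouse on day 4 and an antibody against CSF1 on days 9 and 14, the anti-CSF1 group had the antibody alone, the Lupron group had Lupron alone, and the control group is labelled IgG. Lupron (leuprolide) lowers testosterone through the pituitary. All tumours were taken on day 17 after perfusion with PBS, which washes blood out of the vessels. The labels do not say whether mice of the Lupron group were given a control antibody as well. Each library is 1 tumour sample; the labels do not state that replicates came from separate mice, so p-values measure the spread between these samples.

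Classical monocytes carry Ly6C on their surface, leave the bone marrow through the chemokine receptor CCR2 and enter inflamed tissue and tumours, where they can become macrophages. Non-classical monocytes carry little Ly6C, patrol the vessel wall and arise from classical monocytes. CSF1 and its receptor CSF1R keep tissue macrophages and non-classical monocytes alive, whereas classical monocytes depend on them less. Most of the 8 genes are also made elsewhere: Ace by endothelium, Plac8 by epithelial cells and lymphocytes, F13a1 by tissue macrophages and Ly6c2 by some T cells and plasmacytoid dendritic cells. In bulk tumours, fewer cells of a type and less RNA per cell cannot be told apart.

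Ly6c2 has a near copy, Ly6c1, which endothelium expresses strongly, so the sequences are shown first because they bear on which gene a read was counted for. Of 393 coding bases, 384 were identical between Ly6c2 and Ly6c1 (97.7%), with an identical run of 188 bases, and Ly6i was 81.3% identical to Ly6c2. The first 120 coding bases hold 6 of the differences between Ly6c2 and Ly6c1; capitals mark bases that differ from Ly6c2.
Ly6c2: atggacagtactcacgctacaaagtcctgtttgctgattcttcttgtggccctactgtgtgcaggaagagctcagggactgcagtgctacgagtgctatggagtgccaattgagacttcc
Ly6c1: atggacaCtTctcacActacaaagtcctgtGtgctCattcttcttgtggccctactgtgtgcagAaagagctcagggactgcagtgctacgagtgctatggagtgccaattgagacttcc
Ly6i: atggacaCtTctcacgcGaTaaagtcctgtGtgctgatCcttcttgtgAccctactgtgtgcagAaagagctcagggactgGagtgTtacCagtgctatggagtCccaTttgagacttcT
Of the 50-base windows of the Ly6c2 transcript, 33.0% also occurred in another gene, against 4.97% for Ly6i, 29.4% for Chil3 (shared with Chil4 and Gm6522), 2.27% for Ccr2 and 0 for Plac8, F13a1, Treml4 and Ace. The labels do not say how reads that match several genes were counted, so counts of Ly6c2, Ly6i and Chi3l3 are uncertain to that extent.

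The start regions of Ly6c2 and Ly6c1 are shown because the counts of these near copies followed different courses. They are RefSeq windows of 300 bases on GRCm38.p6, minus strand. The capitals mark GAGGAAGT (or ACTTCCTC on the other strand), a form of the site bound by PU.1, a transcription factor of monocytes and macrophages. It was picked after the sequences had been seen. Of the 8 genes, 7 had a RefSeq window. A Ly6c2 window, chr15:75111922-75112221, held 2 matches, and a Ly6c1 window, chr15:75048614-75048913, held 1. RefSeq lists another, overlapping window for Ly6c2, which held the same 2 matches.
Ly6c2: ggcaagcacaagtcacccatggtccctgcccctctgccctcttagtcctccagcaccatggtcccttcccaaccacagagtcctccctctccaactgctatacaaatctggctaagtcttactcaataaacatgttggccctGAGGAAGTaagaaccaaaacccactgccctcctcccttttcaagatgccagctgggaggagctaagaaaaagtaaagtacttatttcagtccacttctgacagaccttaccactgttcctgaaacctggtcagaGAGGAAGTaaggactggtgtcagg
Ly6c1: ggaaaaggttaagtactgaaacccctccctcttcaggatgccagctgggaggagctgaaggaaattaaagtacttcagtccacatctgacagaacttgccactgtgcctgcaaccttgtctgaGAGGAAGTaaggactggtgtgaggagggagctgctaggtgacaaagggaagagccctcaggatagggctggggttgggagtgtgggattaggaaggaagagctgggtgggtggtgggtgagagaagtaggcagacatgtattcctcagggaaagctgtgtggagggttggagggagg
For Ly6c1, too, RefSeq lists another start. Its window ended within the match shown above and so held 0 matches. Of the F13a1 windows, 1 held 1 match. Of 32851 mouse promoter windows of this length, 1052 (3.2%) held the motif and 20 (0.0609%) held at least 2. Because the motif was picked from the sequences shown, these shares do not test it. A match is only a run of letters and not a shown binding site.

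The 2 Ly6 genes lie on chromosome 15 and the other 6 on chromosomes of their own. Per RefSeq on GRCm38.p6, Ly6c2 spans chr15:75108161-75112066, Ly6i chr15:74979534-74983434, Ccr2 chr9:124101918-124109140 and Plac8 chr5:100551589-100572253. F13a1 spans chr13:36867178-37050244, Chil3 chr3:106147554-106167564, Treml4 chr17:48264200-48275607 and Ace chr11:105967948-105989964. Predicted genes overlap F13a1, Ly6i, Treml4 and Ace. Whether strand was used in counting is not given, so reads of these predicted genes cannot be told apart from those of the 4 named genes.

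Library totals ran from 20584363 to 29965355 counts, and the unit of level used below is CPM, a count divided by its library total after TMM scaling. CPM is not divided by gene length, so levels are compared between tumours and not between genes. Csf1r and other macrophage markers were lower with the antibody. Csf1r, the CSF1 receptor on macrophages, was at 24.0, 15.1 and 19.8 CPM in Lupron/anti-CSF1 tumours and 27.1, 10.9 and 25.3 CPM in anti-CSF1 tumours, against 139, 80.5 and 106 CPM in Lupron tumours and 113, 148 and 51.9 CPM in IgG tumours. The sum of 10 macrophage markers lay at 182 to 252, 161 to 311, 962 to 1260 and 456 to 1280 CPM in the same order of groups. A pair of IgG libraries stood apart and bears on many values below. IgG replicate 3 had a summed level of 5 smooth muscle markers of 10400 CPM, and IgG replicate 2 one of 2420 CPM, against 203 to 1440 CPM in the other 10 libraries. The summed prostate epithelium list was at 48600 CPM in IgG replicate 3, against 197 to 11000 CPM elsewhere. Lupron replicate 2 had the highest sum of seminal vesicle genes, 359000 CPM, against 251 to 100000 CPM elsewhere. IgG replicate 2 also had the lowest RNA integrity number, 8.2 in a range of 8.2 to 9.8. Values without IgG replicate 2 are given below for Ly6c2, Ccr2, Chi3l3 and Ly6i, and values without both libraries for F13a1. Leaving out both was an alternative added after the data had been seen.

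F13a1 was the 1 gene of the 8 that passed the test when tumours with the antibody were compared with tumours without it, 3.47-fold lower. Across the 8 genes, 6 had a negative and 2 a positive log2 fold change in this comparison of 6 libraries with 6, with a median of -1.35, beside 0.0207 over all 15082 genes. Called genes made up 1.87% of all genes tested, 1.79% in the lower direction. At an unadjusted p under 0.05, 3 of the 8 were lower (Ccr2, F13a1 and Treml4), beside 13.7% of all genes. None of the 8 had groups without overlap, beside 1.69% of all genes that were lower without overlap. The test throughout is edgeR's quasi-likelihood F test, two-sided, with Benjamini-Hochberg adjustment over all 15082 genes.

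**Figure D1:**
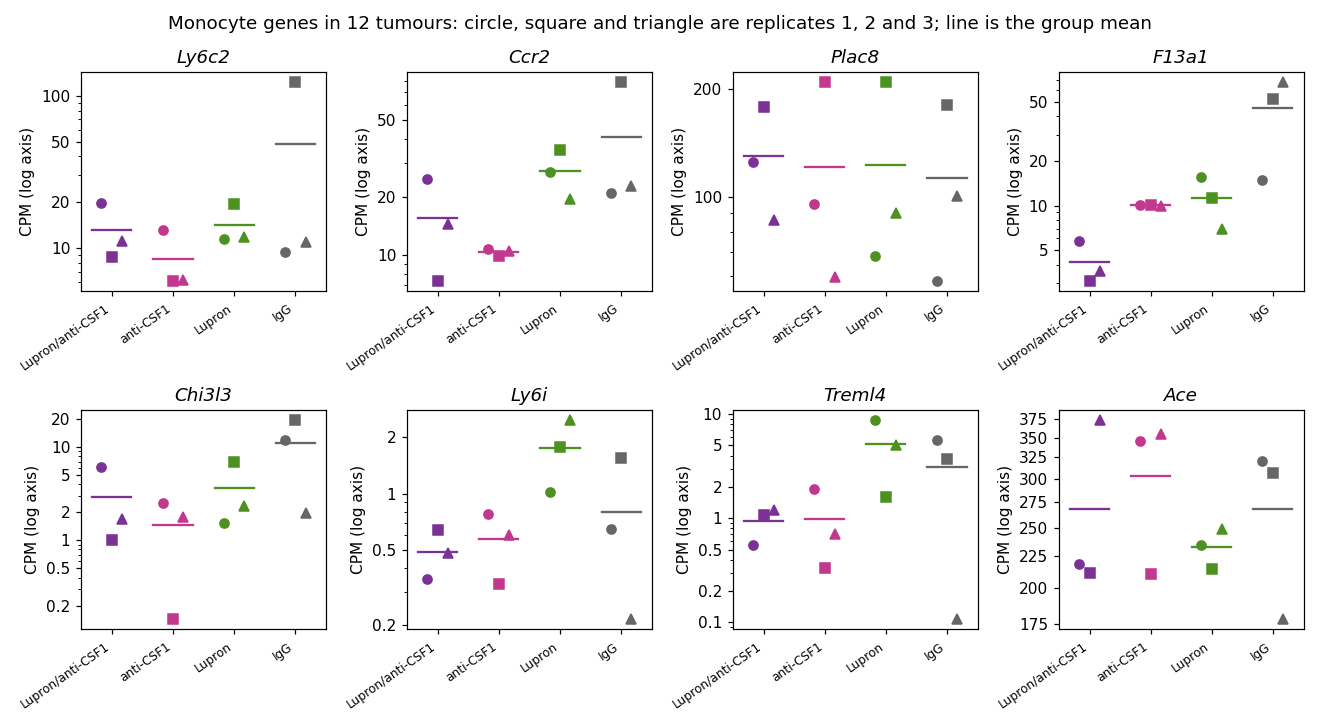
Level of each gene in each tumour, in CPM on a log axis, by treatment group. Circles, squares and triangles are replicates 1, 2 and 3 and the line is the group mean; IgG replicate 2 has the highest Ly6c2 (123 CPM), Ccr2 (79.0 CPM) and Chi3l3 (19.5 CPM), and IgG replicate 3 has the highest F13a1 (68.1 CPM) and the lowest Treml4 (0.107 CPM).

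Ccr2 encodes the receptor for the chemokine CCL2, which draws classical monocytes out of the marrow. It was at 24.6, 7.31 and 14.5 CPM in Lupron/anti-CSF1 tumours and 10.7, 9.81 and 10.5 CPM in anti-CSF1 tumours, against 27.0, 34.9 and 19.5 CPM in Lupron tumours and 21.04, 79.0 and 22.7 CPM in IgG tumours. The anti-CSF1 tumours lay below all 3 IgG tumours, whereas the Lupron/anti-CSF1 tumours overlapped with the Lupron tumours through replicate 1. The mean was 15.5 ± 8.69 CPM in Lupron/anti-CSF1, 10.4 ± 0.49 CPM in anti-CSF1, 27.1 ± 7.68 CPM in Lupron and 40.9 ± 33.0 CPM in IgG tumours (SD, n = 3 each). With the antibody, Ccr2 had a log2 fold change of -1.39 ± 0.38 (SE), which missed the threshold (adjusted p = 0.0997); DESeq2 called it (adjusted p = 0.00627), as did the edgeR fits without IgG replicate 1 (0.0291) and without IgG replicate 3 (0.0424). Without IgG replicate 2 the estimate was -0.94 (adjusted p = 0.168). Its estimate for anti-CSF1 against IgG was -1.98 ± 0.55 (adjusted p = 0.0938), and -1.07 (adjusted p = 0.199) without IgG replicate 2. DESeq2 gave an adjusted p of 0.00476 there, and the fit without IgG replicate 1 gave 0.0221. Its estimate for Lupron/anti-CSF1 against Lupron was -0.81 ± 0.53 (adjusted p = 1.0).

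Ly6c2 encodes the Ly6C protein by which classical monocytes are sorted. It was at 19.8, 8.75 and 11.2 CPM in Lupron/anti-CSF1 tumours and 13.2, 6.07 and 6.22 CPM in anti-CSF1 tumours, against 11.5, 19.4 and 11.7 CPM in Lupron tumours and 9.44, 123 and 10.9 CPM in IgG tumours. IgG replicate 2 was the highest, and the other 2 IgG tumours lay below all 3 Lupron tumours and within the range of both antibody groups. IgG replicate 2 was 6.23 times the next highest and 11.1 times the median of the other 11. With the antibody the log2 fold change was -1.30 ± 0.60 (adjusted p = 0.266), and -0.18 (adjusted p = 0.751) without IgG replicate 2. For anti-CSF1 against IgG it was -2.49 ± 0.87 (adjusted p = 0.138), and -0.25 (adjusted p = 0.747) without IgG replicate 2, but -2.97 (adjusted p = 0.0307) without IgG replicate 1. The estimate for Lupron/anti-CSF1 against Lupron was -0.10 ± 0.83 (adjusted p = 1.0).

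Ly6c1, the near copy, did not share the excess in IgG replicate 2. It was at 175, 157 and 125 CPM in Lupron/anti-CSF1 tumours and 164, 181 and 197 CPM in anti-CSF1 tumours, against 159, 108 and 120 CPM in Lupron tumours and 131, 137 and 62.6 CPM in IgG tumours. Ly6c2 therefore took 47.4% of the counts of both genes in IgG replicate 2, with a 95% Wilson interval of 46.2 to 48.7% that covers counting error only. In the other 11 libraries the share ran from 3.06 to 15.3%. Added up, the counts of Ly6c1, Ly6c2 and Ly6i had a log2 fold change of 0.23 with the antibody (adjusted p = 0.629). The sign was opposite to that of Ly6c2 alone. Most of the added counts were of Ly6c1, which alone had a log2 fold change of 0.48, so the sum says little about Ly6c2.

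**Figure D2:**
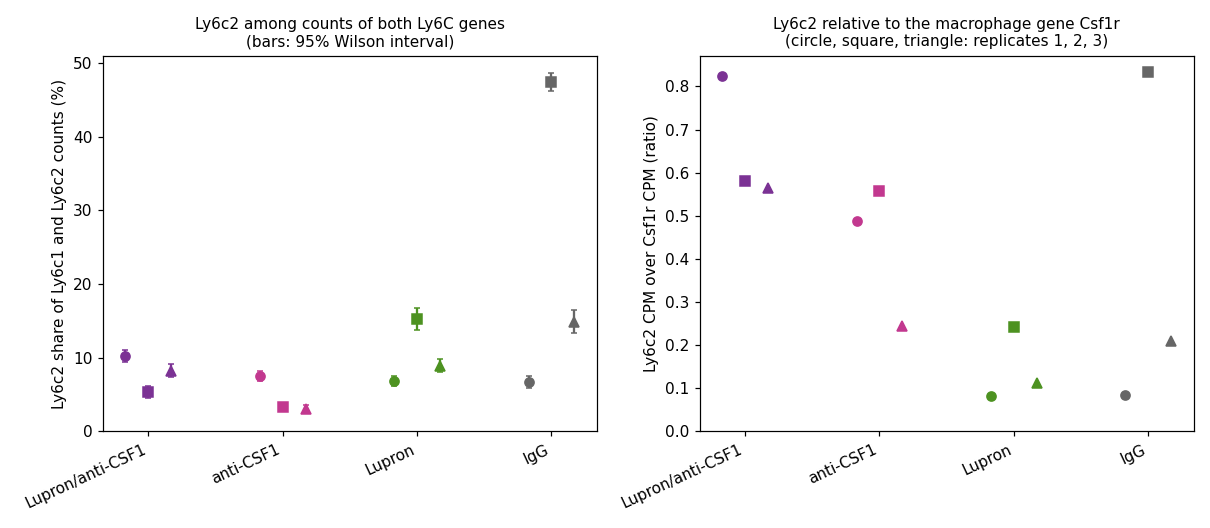
Left, percent of the counts of Ly6c1 and Ly6c2 that fell on Ly6c2 in each tumour, with 95% Wilson intervals; right, ratio of Ly6c2 CPM to Csf1r CPM. IgG replicate 2 stands at 47.4% on the left and 0.834 on the right; Lupron/anti-CSF1 replicate 1 stands at 0.824 on the right.

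F13a1 encodes the A chain of coagulation factor XIII, which cross-links fibrin and is made by monocytes and by some tissue macrophages. It was at 5.75, 3.09 and 3.61 CPM in Lupron/anti-CSF1 tumours and 10.1, 10.1 and 9.95 CPM in anti-CSF1 tumours, against 15.5, 11.2 and 6.98 CPM in Lupron tumours and 14.9, 52.2 and 68.1 CPM in IgG tumours. The order of the group means was Lupron/anti-CSF1 (4.15 ± 1.41 CPM), anti-CSF1 (10.1 ± 0.0951 CPM), Lupron (11.2 ± 4.24 CPM) and IgG (45.1 ± 27.3 CPM; SD, n = 3 each), with anti-CSF1 inside the range of Lupron. Both antibody groups lay wholly below their counterparts, although IgG replicate 1, at 14.9 CPM, was within the Lupron range. With the antibody F13a1 fell, with a log2 fold change of -1.80 ± 0.35 (adjusted p = 0.0268). The call was lost in 8 of the 12 fits that left out 1 library (estimates -2.0 to -1.58, adjusted p up to 0.0981), and without IgG replicates 2 and 3 the estimate was -1.0 (adjusted p = 0.132). The libraries whose loss removed the call were all 3 of anti-CSF1, Lupron replicates 1 and 2, Lupron/anti-CSF1 replicates 2 and 3, and IgG replicate 2.

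The separate comparisons of F13a1 did not pass. For anti-CSF1 against IgG the log2 fold change was -2.16 ± 0.49 (adjusted p = 0.0903), with DESeq2 giving 0.000642 and the fit without IgG replicate 1 giving 0.00762. Without IgG replicates 2 and 3 it was -0.58. For Lupron/anti-CSF1 against Lupron it was -1.43 ± 0.49 (adjusted p = 0.596).

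Plac8, a small cysteine-rich protein, did not pass the test in any comparison. It was at 125, 178 and 86.1 CPM in Lupron/anti-CSF1 tumours and 95.2, 210 and 59.7 CPM in anti-CSF1 tumours, against 68.4, 209 and 90.3 CPM in Lupron tumours and 58.1, 180 and 101 CPM in IgG tumours. In each group replicate 2 was the highest, and all 4 groups overlapped; nothing in the labels says that equal numbers share a batch. With the antibody the log2 fold change was 0.09 ± 0.40 (adjusted p = 0.909).

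Chi3l3 encodes the chitinase-like protein Ym1, also made by neutrophils and alternatively activated macrophages. It was at 6.14, 1.01 and 1.69 CPM in Lupron/anti-CSF1 tumours and 2.52, 0.142 and 1.78 CPM in anti-CSF1 tumours, against 1.52, 7.00 and 2.33 CPM in Lupron tumours and 11.8, 19.5 and 1.96 CPM in IgG tumours. IgG replicates 1 and 2 were the highest of the 12, while the value of 0.142 CPM rests on 3 counts. With the antibody the log2 fold change was -1.59 ± 0.75 (adjusted p = 0.276), and -2.89 ± 1.10 for anti-CSF1 against IgG (adjusted p = 0.162), where DESeq2 gave 0.034. Without IgG replicate 2 these were -1.24 (adjusted p = 0.396) and -2.2 (adjusted p = 0.29). Chi3l4, its near copy, had 0 counts in all 12 libraries.

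Ly6i, a further Ly6 gene of monocytes, was near the floor of the measurement, with 6 to 71 counts per library. It was at 0.352, 0.64 and 0.482 CPM in Lupron/anti-CSF1 tumours and 0.782, 0.332 and 0.604 CPM in anti-CSF1 tumours, against 1.01, 1.78 and 2.47 CPM in Lupron tumours and 0.647, 1.54 and 0.214 CPM in IgG tumours. The 3 Lupron tumours lay above all 3 Lupron/anti-CSF1 tumours, whereas anti-CSF1 and IgG overlapped. The log2 fold change was -1.83 ± 0.77 for Lupron/anti-CSF1 against Lupron (adjusted p = 1.0) and -1.15 ± 0.54 with the antibody over both settings (adjusted p = 0.273), the second being -0.70 (adjusted p = 0.458) without IgG replicate 2. The estimate for anti-CSF1 against IgG was -0.47 ± 0.75 (adjusted p = 0.712), and 0.42 (adjusted p = 0.756) without IgG replicate 2.

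Among the non-classical genes, Treml4 encodes a TREM-like receptor of non-classical monocytes and some macrophages. It was at 0.548, 1.07 and 1.2 CPM in Lupron/anti-CSF1 tumours and 1.9, 0.332 and 0.711 CPM in anti-CSF1 tumours, against 8.76, 1.61 and 5.04 CPM in Lupron tumours and 5.59, 3.67 and 0.107 CPM in IgG tumours. Apart from IgG replicate 3, with 3 counts, and Lupron replicate 2, the tumours without the antibody lay above every tumour with it. The log2 fold change with the antibody was -2.05 ± 0.77 (adjusted p = 0.193). DESeq2 called it narrowly (adjusted p = 0.0491), and so did the edgeR fit without IgG replicate 3 (0.0333). For Lupron/anti-CSF1 against Lupron, where the groups did not overlap, it was -2.45 ± 1.10 (adjusted p = 1.0), and for anti-CSF1 against IgG -1.65 ± 1.07 (adjusted p = 0.356). The last was -0.91 (adjusted p = 0.59) without IgG replicate 1 and -2.56 (adjusted p = 0.30) without anti-CSF1 replicate 1.

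Ace encodes angiotensin-converting enzyme, which endothelium and epithelia make as well as non-classical monocytes. It was at 218, 211 and 374 CPM in Lupron/anti-CSF1 tumours and 345, 211 and 355 CPM in anti-CSF1 tumours, against 234, 214 and 249 CPM in Lupron tumours and 321, 307 and 178 CPM in IgG tumours. All 4 groups overlapped, and the 12 tumours differed by 2.1-fold from lowest to highest. The log2 fold change with the antibody was 0.19 ± 0.22 (adjusted p = 0.635). The summed level of 8 endothelial markers lay at 243 to 378 CPM in Lupron/anti-CSF1, 373 to 580 CPM in anti-CSF1, 197 to 334 CPM in Lupron and 180 to 422 CPM in IgG tumours, with none of the 8 called and a median log2 fold change of 0.40 with the antibody. The part of endothelium in the Ace level was not tested.

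**Figure D3:**
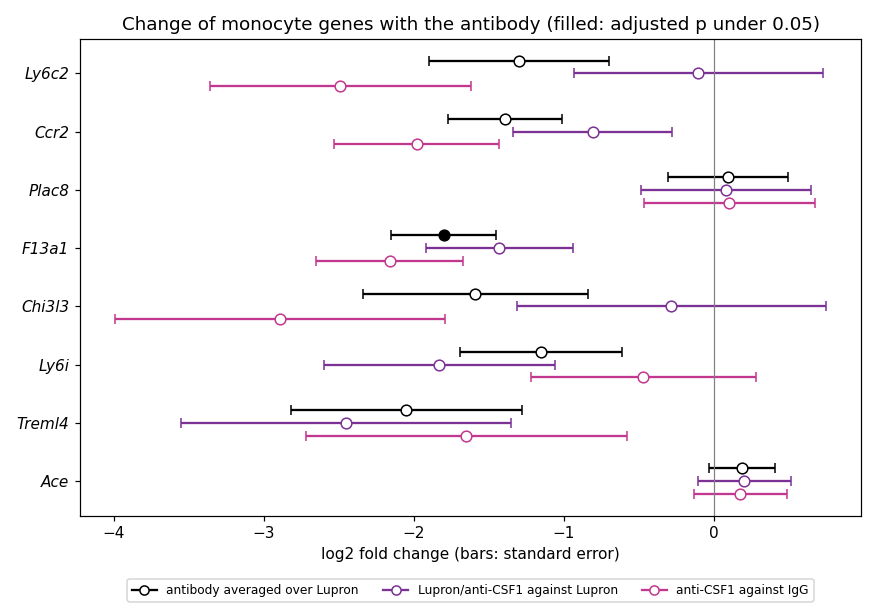
Log2 fold change of each gene with the antibody, with standard errors, averaged over Lupron (black), for Lupron/anti-CSF1 against Lupron (purple) and for anti-CSF1 against IgG (pink). The filled point, F13a1 averaged over Lupron (-1.80), is the 1 estimate with an adjusted p under 0.05; Plac8 and Ace lie near 0 in all 3 comparisons.

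By setting, 6 of the 8 genes had a negative estimate in each separate comparison and none was called. For anti-CSF1 against IgG the groups of Ccr2 and F13a1 did not overlap, 2 of 8 genes, where 12.8% of all genes were lower without overlap; edgeR called 0.00663% of all genes, and 4 of the 8 genes had an unadjusted p under 0.05, where 16.7% of all genes were lower at that p. For Lupron/anti-CSF1 against Lupron the groups of F13a1, Ly6i and Treml4 did not overlap, 3 of 8 genes, where 6.93% of all genes were lower without overlap; edgeR called 0 of all genes, 3 of the 8 had an unadjusted p under 0.05, and 3.58% of all genes were lower at that p. The median over the 8 genes was -1.82 in the anti-CSF1 comparison and -0.54 in the Lupron/anti-CSF1 comparison, beside 0.0144 and 0.041 over all genes. The test of the difference between the settings, the interaction, called none of the 8, and edgeR called 0 of all genes, whereas DESeq2 called 188. At an unadjusted p under 0.05 it gave 0 of the 8, beside 6.77% of all genes. Its largest estimates were 2.61 ± 1.48 for Chi3l3 and 2.39 ± 1.19 for Ly6c2, and the Ly6c2 value was 0.15 without IgG replicate 2.

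**Figure D4:**
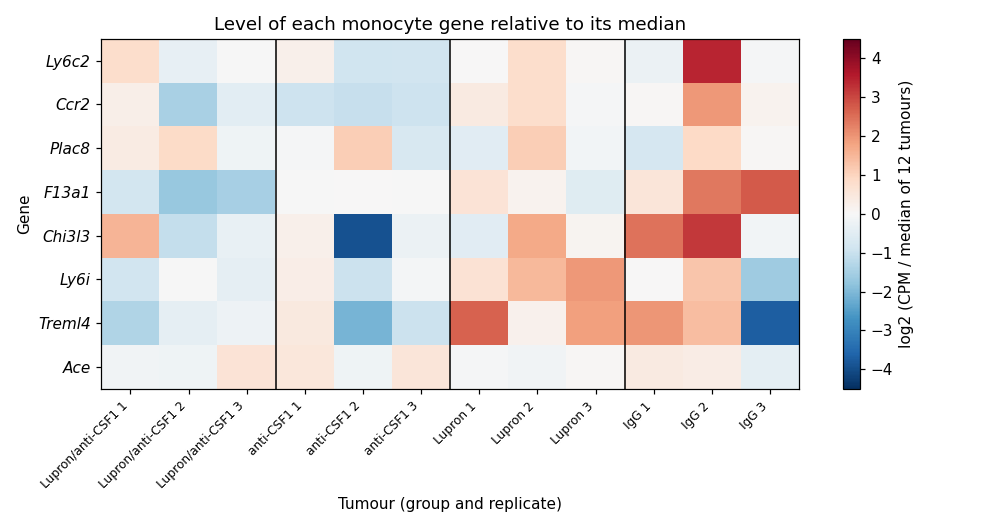
Level of each gene in each tumour relative to the gene's own median over the 12 tumours, on a log2 scale; red is above and blue below the median. Ly6c2, Ccr2 and Chi3l3 are highest in IgG replicate 2, F13a1 is highest in IgG replicate 3, and Ace varies little.

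Lupron alone moved none of the 8 genes past the threshold. For Lupron against IgG 5 of 8 estimates were negative, with a median of -0.40 beside -0.0194 over all genes, and no gene had groups without overlap, where 8.53% of all genes were lower without it. Of the 8, 1 was lower at an unadjusted p under 0.05, F13a1, both for Lupron against IgG (11.7% of all genes) and for Lupron averaged over the antibody (5.32%); edgeR called 0 of all genes in both. In the averaged comparison no gene of the 8 had groups without overlap, beside 0.278% of all genes. F13a1 had a log2 fold change of -2.01 ± 0.49 (adjusted p = 0.284; 0.00996 by DESeq2; 0.0308 without IgG replicate 1), and of -0.43 (adjusted p = 0.967) without IgG replicates 2 and 3. Averaged over the antibody it was -1.64 ± 0.35 (adjusted p = 0.525; 0.0344 by DESeq2), and -0.85 (adjusted p = 0.734) without IgG replicates 2 and 3. The 6 tumours with Lupron had 3.09 to 15.5 CPM of F13a1, and the 6 without it 9.95 to 68.1 CPM. The remaining 7 genes had averaged estimates between -0.56 and 0.45. The estimates for Ly6c2 (-1.75) and Ccr2 (-0.59) for Lupron against IgG turned to 0.49 and 0.31 without IgG replicate 2.

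**Figure D5:**
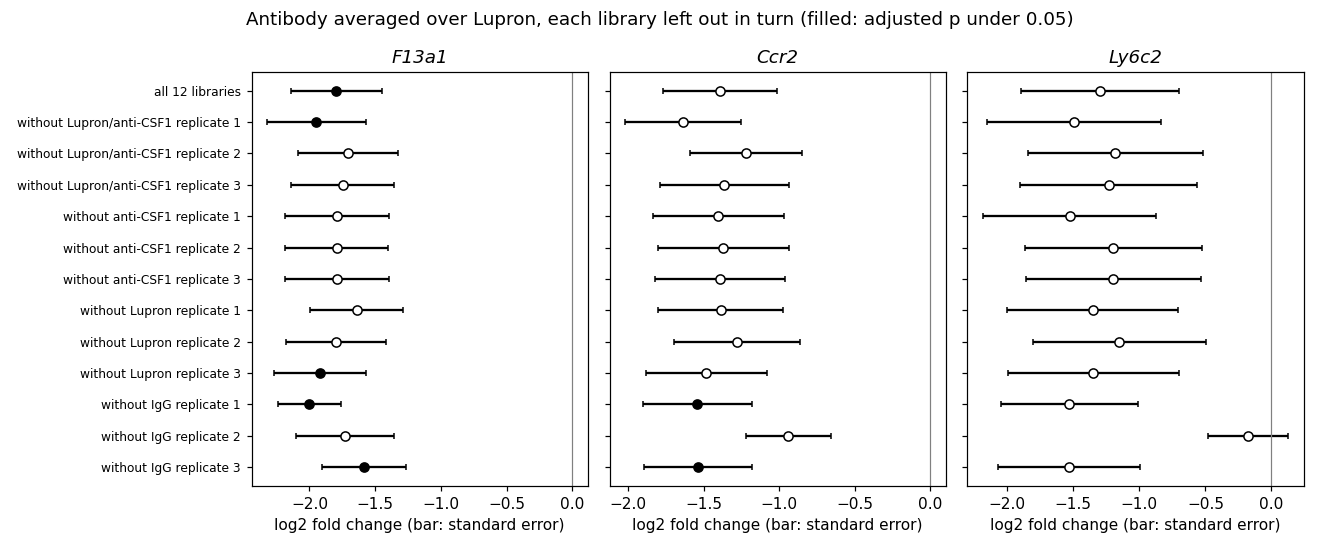
Log2 fold change with the antibody averaged over Lupron for F13a1, Ccr2 and Ly6c2, with all 12 libraries and with each left out in turn; bars are standard errors and filled points have an adjusted p under 0.05. F13a1 stays between -2.0 and -1.58 and is filled in 4 of 12 fits, Ccr2 in 2 of 12, and Ly6c2 lies at -0.18 without IgG replicate 2.

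Csf1r fell with the antibody (-2.38 ± 0.31, adjusted p = 0.00798), and the ratios of the 8 genes to it lay in different ranges. The ratio of Ace to Csf1r, each in CPM, was 9.1 to 19.3 in the 6 tumours with the antibody and 1.69 to 3.42 in the 6 without it, with no overlap. Ace itself overlapped between these tumours, whereas Csf1r did not, at 10.9 to 27.1 CPM with the antibody and 51.9 to 148 CPM without it. The gap in this ratio thus follows from the divisor. For Plac8 the ratio was 2.36 to 19.2 with the antibody and 0.493 to 2.6 without it. Ccr2 stood at 0.396 to 1.02 of Csf1r with the antibody and 0.185 to 0.534 without it. For F13a1 the ratio was 0.183 to 0.93 with the antibody and 0.0661 to 1.31 without it, and for Treml4 0.0228 to 0.0707 and 0.00206 to 0.063. With and without the antibody, Ly6c2 stood at 0.245 to 0.824 and 0.083 to 0.834 of Csf1r. Chi3l3 stood at 0.013 to 0.256 and 0.011 to 0.132, and Ly6i at 0.0147 to 0.0424 and 0.00412 to 0.0234. These ratios share Csf1r as the divisor, are given as a description and were not tested.

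The other monocyte genes on lists written from general knowledge fell in part. Of 10 other classical monocyte genes, 2 were called lower with the antibody and none higher, with a median of -1.24: Fcgr1, a high-affinity IgG receptor (-2.44 ± 0.43, adjusted p = 0.0194), and Ms4a6c (-2.35 ± 0.42, adjusted p = 0.0194). Of 10 other non-classical genes, 3 were called lower and none higher, with a median of -1.40: Cd300ld (-2.27 ± 0.35, adjusted p = 0.0115), Pou2f2, a transcription factor (-2.29 ± 0.40, adjusted p = 0.017), and Cx3cr1, the fractalkine receptor (-2.83 ± 0.53, adjusted p = 0.0251). On the classical list Vcan (0.90 ± 0.57), Thbs1 (0.59 ± 0.41) and Cd177 (0.04 ± 0.64) had positive estimates that were not called. So did Spn (0.69 ± 0.40) on the non-classical list. Of all genes tested, 1.79% were called lower. Macrophages also express Fcgr1 and Cx3cr1, and 8 of 10 macrophage markers were called lower, with a median of -2.18. Whether the fall of the called genes, Ms4a6c, Cd300ld and Pou2f2 included, lay in monocytes or in macrophages was not tested. Of 5 chemokines that draw monocytes, Ccl8 (-2.91 ± 0.43, adjusted p = 0.00931) and Ccl12 (-3.10 ± 0.52, adjusted p = 0.0155) were called lower, whereas Ccl2, the main ligand of CCR2, was not (-0.29, adjusted p = 0.805). No gene of these lists was called in the other 5 comparisons.

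IgG replicate 2 also had the highest level of several of these genes. Ccl2 was at 159 CPM there, with 42.1 CPM in the next highest library, and Ms4a4c was at 136 CPM, with 56.2 CPM in the next. Ly6c2 and Ccr2 were highest in the same tumour as Ccl2, a ligand gene of CCR2. The classical monocyte genes Vcan and Thbs1 were not highest there, at 376 and 325 CPM. They reached 1520 CPM (Vcan, Lupron/anti-CSF1 replicate 3) and 930 CPM (Thbs1, anti-CSF1 replicate 3) elsewhere. The macrophage marker Mrc1 was also highest in IgG replicate 2, at 139 CPM, with 82.0 CPM in the next library.

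Across the 12 libraries, the genes whose log2(CPM + 1) followed each gene most closely were Gapt, Lmo2 and Ccl9 for Ccr2 (Pearson r 0.916, 0.914 and 0.913) and Efemp1, Daglb and Pde10a for F13a1 (0.958, 0.951 and 0.944). For Treml4 they were Itgal, an integrin chain of leukocytes, Prss30 and Cpsf4 (0.933, 0.929 and 0.924), and for Ace Eml1, Lig3 and Egfr (0.927, 0.914 and 0.900). Plac8 was followed by Ssr4, Serp1 and Guk1 (0.951, 0.948 and 0.940) and Chi3l3 by Nlrp10, Tal1 and Hs6st2 (0.860, 0.845 and 0.838). For Ly6c2 they were Lysmd1, Dsc1 and Itgb7 (0.948, 0.903 and 0.900), which dropped to 0.697, 0.441 and 0.752 without IgG replicate 2. The libraries share their depth and tissue makeup with every gene, so these values are a description. Ly6i, with a mean under 1 CPM, was not included.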

How the data were processed

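The raw counts were deposited by the authors as whole numbers for 23479 gene symbols in 12 libraries, without normalization. Per the labels' protocols, the kit was NuGen Ovation Mouse RNA-Seq. According to the submitters' processing notes, bcl2fastq 2.20.0.422, cutadapt 1.8.1 and HTSeq 0.6.1 were used with genome build mm10. No source used here names the aligner, the annotation or the strand setting. Counts were scaled with TMM factors, filtered on low counts and fitted with 1 mean per group over 12 libraries in edgeR 4.0.16 (R 4.3.3; limma 3.58.1) with the robust quasi-likelihood F test, and called below 0.05 after Benjamini-Hochberg adjustment. DESeq2 1.42.0, other scaling factors and filters, a replicate block and leaving out libraries were alternatives. In a comparison of 3 tumours with 3, the lowest p an exact permutation test allows is 0.1. Comparisons of 6 libraries with 6 are not bound by that value. No pair of libraries looked like a duplicate.

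The 8 genes, the 16 other lists (120 symbols with the 8; 5 matched by an older symbol, 2 unmatched) and the tests were chosen with earlier results of these data known. Up to 4 genes of a list, those with the smallest p with the antibody, could be named, and for each gene with a mean of at least 1 CPM the 3 with the highest Pearson r. Ms4a4c, Ccl2, Chi3l4 and Ly6c1 belong to these lists. Vcan, Thbs1, Cd177 and Spn, also on them, are named because their estimates with the antibody were positive. The levels of Ms4a4c, Ccl2, Vcan, Thbs1 and Mrc1 in IgG replicate 2 were chosen after they had been seen. Sequences are from RefSeq (GRCm38.p6) and GENCODE transcripts of GRCm38.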

Additional observations from a re-analysis of the deposited data

How the results depend on the processing

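With the antibody averaged over Lupron, edgeR called 1 of the 8 genes and 282 of all genes; DESeq2 called 3 and 1425, the replicate block 0 and 151, and the fit without IgG replicates 2 and 3 called 0 and 277. Leaving out 1 library gave 0 to 3 and 65 to 1577. For anti-CSF1 against IgG (0 and 1 called), DESeq2 called 3 and 1841, RLE factors, upper-quartile factors, the stricter filter and the scaling without secretory genes called 2 of all genes each, the compared groups alone and the replicate block 0, the fit without IgG replicates 2 and 3 called 7, and leaving out 1 library gave 0 to 3 and 0 to 2611. For Lupron/anti-CSF1 against Lupron (0 of all genes called), RLE factors and the stricter filter gave 5, upper-quartile factors 7, no filter 2, DESeq2 236, the compared groups alone 204, the fit without IgG replicates 2 and 3 gave 214, and leaving out 1 library 0 to 210. DESeq2 called 1 and 12 for Lupron averaged over the antibody, 1 and 404 for Lupron against IgG and 188 of all genes for the interaction (edgeR 0 in all 3); leaving out 1 library gave 0 to 2, 0 to 653 (0 to 1 of the 8) and 0 to 5. The cause of these differences was not tested. The fit without IgG replicates 2 and 3 assumes that the remaining IgG library varies like the other groups.

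Signs turned, in log2 units, for estimates that were not called. Upper-quartile factors gave -0.00043 (Plac8, antibody averaged), -0.043 (Plac8, Lupron/anti-CSF1 against Lupron) and 0.022 (Ccr2, Lupron averaged). The replicate block gave 0.0196 (Ly6c2, Lupron/anti-CSF1 against Lupron), 0.036 (Ccr2, Lupron averaged) and 0.16 (Plac8, interaction), where RLE factors gave 0.0051 and DESeq2 0.0047. Without IgG replicates 2 and 3, Ace was at -0.095 for anti-CSF1 against IgG; Ly6c2, Ccr2 and Treml4 were at 0.61, 0.47 and -0.11 for Lupron averaged and 0.57, 0.35 and -0.14 for Lupron against IgG; F13a1 and Treml4 were at -0.84 and 0.059 for the interaction. Ly6c1, Ly6c2 and Ly6i added up gave 0.23, 0.26, 0.20 and -0.0599 for antibody averaged, anti-CSF1 against IgG, Lupron/anti-CSF1 against Lupron and the interaction. Most of these added counts were of Ly6c1.

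Leaving out 1 library turned the sign in these ranges. Plac8 ran from -0.23 to 0.39 (antibody averaged), -0.54 to 0.62 (anti-CSF1 against IgG), -0.21 to 0.72 (Lupron/anti-CSF1 against Lupron), -0.21 to 0.43 (Lupron averaged), -0.55 to 0.63 (Lupron against IgG) and -0.54 to 0.66 (interaction). For anti-CSF1 against IgG, Ly6i ran from -0.92 to 0.42 and Ace from -0.048 to 0.39. For Lupron/anti-CSF1 against Lupron, Ly6c2 ran from -0.51 to 0.22, Chi3l3 from -1.39 to 0.66 and Ace from -0.10 to 0.35. For Lupron averaged, Ly6c2 ran from -0.80 to 0.56, Ccr2 from -0.26 to 0.45 and Chi3l3 from -0.88 to 0.0252. For Lupron against IgG, Ly6c2 ran from -2.23 to 0.49 and Ccr2 from -0.90 to 0.31. For the interaction, Treml4 ran from -1.53 to 0.11 and Ace from -0.28 to 0.25.

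Of 18 same-number pairs of tumours, 8 correlated above 0.1, in a range of -0.304 to 0.513. Pairs with different numbers ran from -0.642 to 0.556, and pairs among replicates 2 from 0.00513 to 0.513. These values do not settle whether equal replicate numbers pair the tumours. With the replicate block F13a1 had a log2 fold change of -1.80 with the antibody (adjusted p = 0.0829). With 3 tumours per group and low counts of Ly6i, Treml4 and Chi3l3, log2 fold changes of these genes with the antibody averaged over Lupron had standard errors of 0.54 to 0.77, and those of Chi3l3 and Treml4 in the interaction 1.48 and 1.49.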

Other observations

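Among relatives of the 8 genes, none of 6 tested Ly6 family genes was called with the antibody, with a median of -0.91 and Ly6c1 at 0.48 ± 0.20 (adjusted p = 0.236). Ly6a (0.38) and Ly6e (0.20) were positive as well, whereas 3 were negative, Ly6f (-3.20), Ly6d (-2.31) and Ly6k (-2.02). These negative genes were highest in IgG replicate 3, at 28.0, 240 and 8.58 CPM, against at most 6.14, 12.2 and 1.04 CPM elsewhere. Of 4 tested TREM family genes, Trem2, a lipid receptor of macrophages, was called lower (-2.06 ± 0.43, adjusted p = 0.0378), with a list median of -0.92. Of the chitinase family 1 gene was tested, Chi3l1 (0.79 ± 1.19, adjusted p = 0.72). Of 3 tested renin-angiotensin genes, none was called (median -3.45), and Agtr1a had the smallest p (-3.96 ± 0.99, adjusted p = 0.0748). All 3 were far higher in IgG replicate 3 than in any other library. Agtr1a was at 48.5 CPM there and at most 3.84 CPM elsewhere, Mme at 776 and at most 88.3 CPM, and Agt at 6.02 and at most 1.25 CPM. The part of that library in these estimates was not tested.

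Markers of other cells were called with the antibody in 1 case, Tlr9 among 4 plasmacytoid dendritic cell genes (-2.32 ± 0.50, adjusted p = 0.0426; list median -1.50). On the same list Spib (-1.70, adjusted p = 0.365), Ccr9 (-1.30, adjusted p = 0.406) and Siglech (-0.27, adjusted p = 0.793) were not called. Which cells the Tlr9 RNA came from was not tested. None was called among 6 conventional dendritic cell genes (median -1.04), 7 T and NK cell genes (-0.45), 6 neutrophil genes (-0.14), 6 prostate epithelium genes (-1.54), 5 smooth muscle genes (-2.15) and 6 seminal vesicle genes (0.43). The summed level of the 5 smooth muscle genes was highest in IgG replicate 3, at 10400 CPM; its part in the list median was not tested.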
